A study of Mus musculus with 16 samples.

Results

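The livers of mice that received cadmium on a selenium-supplemented diet (Cd+Se) were compared with the livers of mice fed the same diet without cadmium (Se), to ask what Cd changes in liver transcripts when Se is already supplied. The Cd+Se group held 4 mice (numbers 13, 14, 15 and 16) and the Se group 4 mice (39, 40, 41 and 44). Both groups ate selenomethionine (SeMet) at 2 ppm for 3 months, and the Cd+Se mice also received CdCl2 at 1.25 mg/kg into the peritoneum every day of the last 7 days. All animals were wild-type male C57BL/6J mice. The study's methods give an age of 8 to 12 weeks, and a figure legend has mice of 8 weeks at the start of the 3-month diet. Whether the Se mice were given a vehicle injection is not given in the sources used here. A Control group (27, 28, 29 and 30) and a Cd group (1, 2, 5 and 6), of 4 mice each and without added SeMet, the latter given CdCl2, entered the same model and are used below only to set the 2 diets side by side. The deposited table gives 57010 genes, of which 22005 are annotated as protein-coding, and the 10483 protein-coding genes that averaged 1 TPM or more (transcripts scaled to a total of 1000000 in each library) over the 16 libraries are described. TPM state the share of a gene among all transcripts per unit of length, so they keep no sequencing depth, and the depth of each library is unknown.

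Cadmium is a toxic metal that accumulates in liver, where it is bound by metallothioneins, small cysteine-rich proteins whose genes are switched on by metals through the transcription factor MTF1. It also depletes thiols, and cells answer with heme oxygenase and glutathione synthesis genes driven by NRF2. Injured liver releases chemokines that draw neutrophils and monocytes from the blood, while Kupffer cells are the macrophages that reside in the sinusoids. Selenium is built into selenoproteins such as GPX4, which reduces lipid peroxides and restrains ferroptosis.

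The tissue carried its label, since all 14 hepatocyte markers were above the filter, with albumin (Alb) between 27689 and 86650 TPM in the Cd+Se and Se mice. Several libraries stood apart from the rest. Counting genes that lay more than 0.5 log2 units beyond all 15 other libraries, Cd+Se mouse 13 was above in 73 genes and below in 24, Cd+Se mouse 15 above in 86 and below in 63, and Se mouse 40 above in 112 and below in 35. Cd mouse 5 was above in 14 genes and below in 489, with the lowest median log2(TPM + 1) of the 16 libraries (2.78), and it bears on the comparison of diets. None of the other 5 Cd+Se and Se libraries exceeded 11 genes above or 13 below. Cd+Se mouse 15 had 701 TPM of Cyp4a10, a fatty acid omega-hydroxylase, against 14.8, 16.3 and 33.5 TPM in the other Cd+Se mice and 57.8 to 105 TPM in the Se mice. Se mouse 40 had 133 TPM of Fgf21, a hormone of the fasting liver, and 593 TPM of the glutathione transferase Gstm3. Counts and calls below are given without these libraries where they were found to move.

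Few genes passed the test for an effect of CdCl2 in SeMet-fed livers. With 4 mice per group, genes that were not called may still have changed. With limma on log2(TPM + 1), 78 of 10483 protein-coding genes (0.744%) passed an adjusted p of 0.05, of which 58 were higher (0.553%) and 20 lower (0.191%) in Cd+Se mice. The largest rises included Mt2, Mt1, Saa3, S100a8, S100a9 and Ccl2, and the largest falls Cxcl13, the Kupffer cell marker Cd163 and the cytochrome P450 gene Cyp7a1. The median log2 fold change over all genes was -0.04. In 619 genes (5.90%) the 4 Cd+Se mice did not overlap the 4 Se mice, and 76 of the 78 called genes were among them, the exceptions being H2-Aa and Cd74. At an unadjusted p under 0.05, 1164 genes (11.1%) differed, 495 higher and 669 lower, where a share of 0.05 would pass on average if no gene differed. The volcano plot of these tests shows the called genes at their positions.

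**Figure D1:**
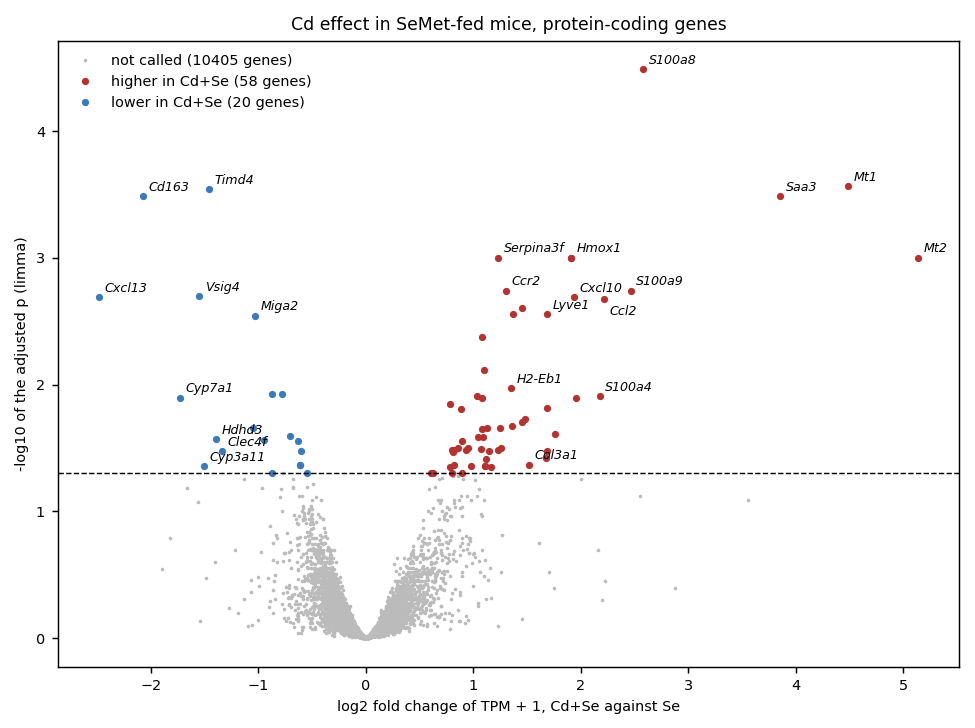
Volcano plot of the 10483 protein-coding genes: the horizontal axis is the log2 fold change of TPM + 1 in Cd+Se against Se mice (n = 4 each) and the vertical axis -log10 of the limma adjusted p. Red points are the 58 higher genes, blue points the 20 lower genes, grey points the 10405 others, and the dashed line marks an adjusted p of 0.05. Mt2, at 5.14, lies farthest to the right and Cxcl13, at -2.49, farthest to the left.

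The higher genes were mostly of low abundance. Over the 8 Cd+Se and Se libraries the median of the mean level was 4.82 TPM in the higher and 11.7 TPM in the lower called genes, against 8.98 TPM over all protein-coding genes tested, and 33 of the 58 higher genes stayed under 10 TPM in both groups. Mouse 13 was the highest of the Cd+Se mice in 48 of the 58 higher genes and the lowest in 9 of the 20 lower genes, with 1 tie. Without mouse 13, 35 genes were called (34 of them among the 78), and without Cd+Se mouse 15, 180 were called. Leaving out Se mouse 44 left 25 calls and Se mouse 41 left 36. Leaving out Cd+Se mouse 15 and Se mouse 40, which were chosen after seeing that they stand apart, called 161 genes higher and 36 lower of 10483, with a median of 0.03 over all genes, and list counts under that setting are to be read beside these. Leaving out mouse 13 as well called 48, of which 34 were among the 78. Lyve1, Miga2, Plek, Apol7a, Ces2a, Ms4a4c, S100a4, Coro1a, Hdhd3, Ms4a6d and Il1rn were called without mouse 13 and without the pair, but not without all 3. All 78 genes kept their direction in every setting that tested them. In the 76 without overlap, leaving out mice could not reverse the direction, so nothing is concluded from this. Called whichever of the 16 mice was left out were 21: Mt1, Mt2, Hmox1, Saa3, S100a8, S100a9, Ccl2, Ccr2, Cxcl2, Cxcl10, Tlr2, Lgals3, Plek, Cd93, Lyve1, Serpina3f, Cxcl13, Cd163, Vsig4, Timd4 and Miga2. Of the genes named in this paragraph, Ccl2, Ccr2, Cxcl2, Tlr2, Cd93, Serpina3f and Ms4a4c averaged under 1 TPM in both groups without Cd. Cxcl13, Cd163 and Timd4 did so in both groups with Cd. These genes passed the filter through the other groups, so their calls are a description only. The spread shared by the 4 groups is lower than that within these 2 (root mean square SD on the log2 scale 0.317 in Cd+Se, 0.307 in Se, 0.288 in Cd and 0.222 in Control mice), and a fit on the 8 Cd+Se and Se libraries alone called 10 genes, namely Mt1, S100a8, S100a9, Ccr2, Ms4a4c, Lyve1, Serpina3f, Cyp7a1, Timd4 and Miga2.

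**Figure D2:**
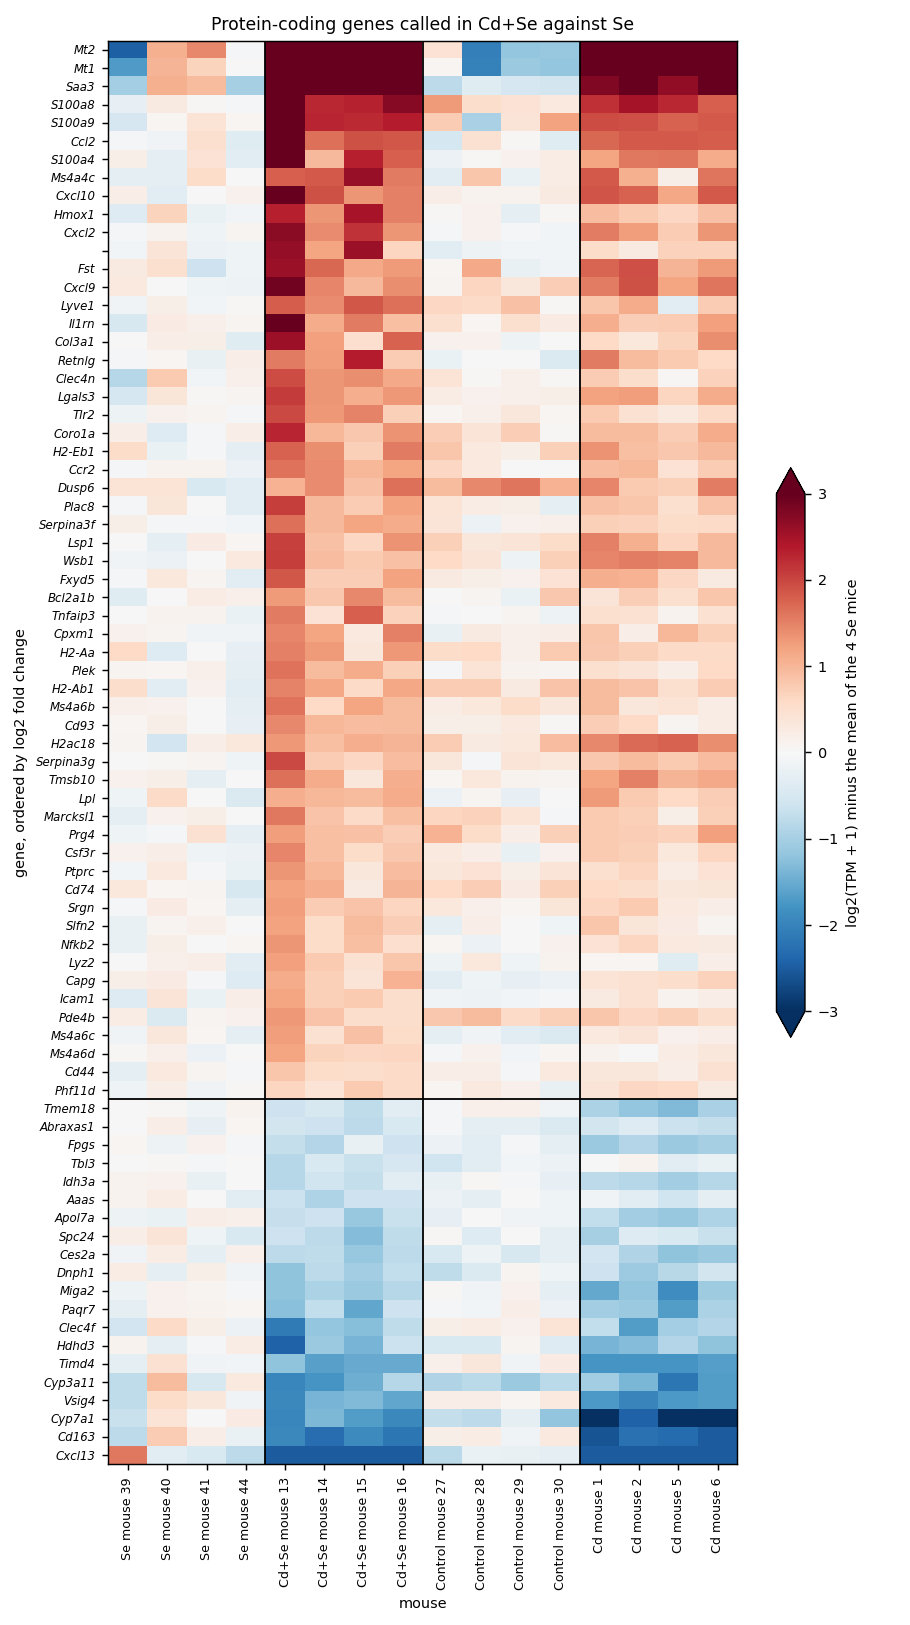
Heat map of the 78 called genes (rows, ordered by log2 fold change) in the 16 mice (columns, by group): the colour is log2(TPM + 1) minus the mean of the 4 Se mice, red higher and blue lower, saturated beyond 3 and -3; 1 row is left without a name. Cd+Se mouse 13 holds the highest value of its group in 48 of the 58 higher genes, though the rows of Mt2, Mt1 and Saa3 are saturated in each Cd+Se mouse and show no order there.

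The metal response was the largest change. Mt2 (chr8:94172664-94173568, GRCm38, plus strand, positions here and below by gene ID from GENCODE M21) stood at 5872, 3064, 5032 and 2765 TPM in Cd+Se mice 13 to 16, and at 19.6, 236, 306 and 107 TPM in Se mice 39, 40, 41 and 44. Mt1 (chr8:94179082-94180327, plus strand) stood at 6070, 3621, 5880 and 3947 TPM in Cd+Se mice and at 64.3, 431, 334 and 215 TPM in Se mice. All Cd+Se mice lay far above all Se mice, and the Se mice themselves were spread widely, with mouse 39 the lowest for both genes. The mean level of Mt2 rose 25.0-fold (log2 fold change 5.14, SE 0.66, limma adjusted p = 9.9e-04) and that of Mt1 18.7-fold (4.48, SE 0.48, adjusted p = 2.7e-04). Without added SeMet, Cd raised the same genes by 5.88 and 5.30 log2 units, and the difference between diets did not pass the test (adjusted p = 0.675 for Mt2 and 0.503 for Mt1).

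Of the 24 metallothionein and zinc transport genes listed, 19 passed the filter, these 2 rose (beside 0.553% of all genes called higher), and the median log2 fold change of the 19 was -0.01. Slc30a1, a zinc exporter of the plasma membrane, stood at 28.4, 31.7, 31.2 and 25.5 TPM in Cd+Se mice and at 13.3, 27.9, 15.6 and 13.7 TPM in Se mice, with a log2 fold change of 0.75 that missed the threshold (adjusted p = 0.196). Its groups overlapped through Se mouse 40 alone, and without that mouse and Cd+Se mouse 15 it was called (0.95, adjusted p = 0.041).

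The windows around the start sites of Mt1 and Mt2 are shown because metal response elements, the short sites that MTF1 recognises, lie in them. Sequences are those of RefSeq on GRCm38.p6, read 5′ to 3′ from 250 bases before to 30 bases after the start of the transcript. Capitals mark matches to the core TGCACNC or TGCGCNC on either strand, where N is any base.
Mt1, chr8:94178839-94179118, plus strand: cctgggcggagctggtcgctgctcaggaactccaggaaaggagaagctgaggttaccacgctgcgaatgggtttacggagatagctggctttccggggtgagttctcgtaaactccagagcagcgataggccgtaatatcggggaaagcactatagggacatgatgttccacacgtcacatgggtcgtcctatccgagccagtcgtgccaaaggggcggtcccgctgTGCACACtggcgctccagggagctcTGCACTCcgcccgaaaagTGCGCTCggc
Mt2, chr8:94172368-94172647, plus strand: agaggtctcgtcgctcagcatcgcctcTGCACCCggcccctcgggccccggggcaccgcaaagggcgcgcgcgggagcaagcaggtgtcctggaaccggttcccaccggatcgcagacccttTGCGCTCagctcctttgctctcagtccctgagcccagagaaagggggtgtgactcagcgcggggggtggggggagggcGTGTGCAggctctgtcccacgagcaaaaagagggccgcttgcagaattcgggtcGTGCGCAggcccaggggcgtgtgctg

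The Mt1 window holds 3 matches and the Mt2 window 4. Among all 32851 RefSeq windows of 300 bases (250 before to 50 after the start), 25.7% hold at least 1 match, 1.97% at least 3 and 0.517% at least 4. For the 8405 tested genes with a window, 3.75% hold at least 3 and 0.988% at least 4. A single match was no more frequent among the called genes, with 11 of the 45 higher genes that have a window (24.4%) and 3 of 16 lower genes (18.8%), than among the 8405 tested genes with a window (39.8%). These matches are a description of the letters and not evidence of binding.

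Heme oxygenase rose and the rest of the antioxidant lists did not pass the test. Hmox1 (chr8:75093621-75100589), which breaks down heme to iron, biliverdin and carbon monoxide, stood at 54.0, 26.3, 59.7 and 29.9 TPM in Cd+Se mice and at 7.29, 16.2, 8.52 and 9.37 TPM in Se mice. No Cd+Se mouse reached down to the highest Se mouse, number 40. The rise was 4.11-fold in mean TPM (log2 fold change 1.91, SE 0.25, limma adjusted p = 9.9e-04). In Cd against Control the log2 fold change was 0.81, and the difference between diets, 1.10, had an adjusted p of 0.106.

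Hmox1 was the one member called, beside 0.744% of all genes, in each of 3 overlapping lists: iron and heme handling (32 tested), NRF2 target antioxidant genes (24 tested) and ferroptosis genes (33 tested of 39 listed). Their medians were -0.03, -0.05 and -0.03 on the log2 scale, beside -0.04 over all genes. These medians changed sign with the libraries used. Without Cd+Se mouse 15 and Se mouse 40 they were 0.06, 0.16 and 0.11, beside 0.03 over all genes, and without mouse 13 as well they were 0.10, 0.29 and 0.07, beside 0.05, with all 24 NRF2 genes positive. Hmox1 was the one rise in each list under both settings, and the heme synthesis enzyme gene Cpox fell under the first. Gpx4, which reduces lipid hydroperoxides, stood at 280, 281, 290.0 and 356 TPM in Cd+Se mice and at 245, 452, 269 and 335 TPM in Se mice. The Gpx4 groups overlapped almost fully, with means of 302 ± 36.3 and 325 ± 92.4 TPM (SD, n = 4 each), a log2 fold change of -0.07 and a limma adjusted p of 0.924. Slc3a2 and Slc7a11 form the cystine importer, Slc40a1 exports iron, Fth1 stores it and Gclc makes the first step of glutathione synthesis. Of these, Slc3a2 differed by 0.03 log2 units, Slc40a1 by -0.05, Fth1 by 0.08 and Gclc by 0.21, with limma adjusted p values from 0.842 to 0.976 and overlapping groups.

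Slc7a11 lay below the filter. Its level was 1.06, 0.27, 0.34 and 0.59 TPM with Cd and 0.04, 0.03, 0.08 and 0.04 TPM without it, so that the groups did not overlap, although at so low a level. The exact two-sided permutation test gave p = 0.0286, the smallest that 70 arrangements of 4 against 4 mice allow. In Cd mice it stood at 0.17, 0.21, 0.08 and 0.16 TPM and in Control mice at 0.07, 0.07, 0.07 and 0 TPM.

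None of the 26 selenoprotein and selenoprotein synthesis genes tested was called (smallest limma adjusted p 0.353), and their log2 fold changes lay between -0.26 and 0.29. Selenop, the plasma carrier of selenium made by hepatocytes, stood at 3579 ± 247 TPM with Cd and 3711 ± 419 TPM without it. Gpx1, the cytosolic glutathione peroxidase, stood at 1472 ± 105 and 1603 ± 238 TPM. The heat shock, endoplasmic reticulum chaperone, ATF4, p53, proteasome and glutathione S-transferase lists had no called member either. Without Cd+Se mouse 15 and Se mouse 40 the ATF4 list had 2 rises (Atf3 and Sesn2) and the p53 list 1 (Sesn2).

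**Figure D3:**
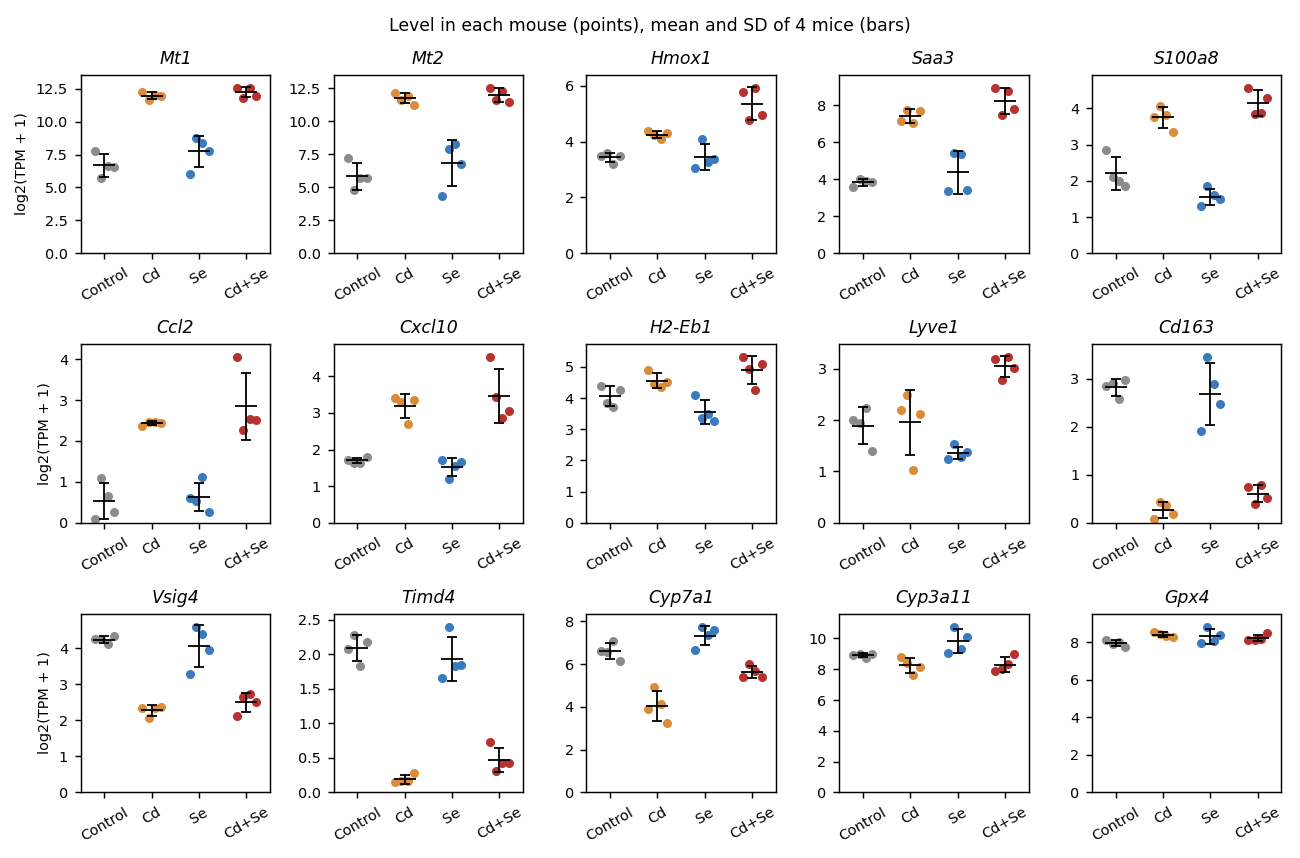
Levels of 15 genes in each mouse: the vertical axis is log2(TPM + 1), starting at 0, points are mice and bars the mean and SD of the 4 mice of each group. Mt1, Mt2, Saa3 and S100a8 separate the Cd+Se from the Se mice, Lyve1 is highest in the 4 Cd+Se mice, and Gpx4 overlaps between Cd+Se and Se mice.

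Of 27 acute-phase genes tested, Saa3 passed the test, beside 0.553% of all genes. Saa3, a serum amyloid A made by macrophages and other cells as well as by liver, stood at 488, 176, 426 and 222 TPM in Cd+Se mice and at 9.25, 42.3, 39.3 and 9.50 TPM in Se mice. The rise was 13.1-fold (log2 fold change 3.86, SE 0.44, limma adjusted p = 3.3e-04), close to the 3.58 log2 units seen without SeMet. Of the 27 genes, 24 had a positive log2 fold change with a median of 0.53, against 4369 positive of 10483 and -0.04 over all genes. Without Cd+Se mice 13 and 15 and Se mouse 40 the median was 0.30, and without Cd+Se mouse 15 and Se mouse 40 alone Apcs, a serum pentraxin, was called too (1.27, adjusted p = 0.017).

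The spread among mice was wide in the others. Lcn2, an iron-chelating protein of inflammation, stood at 403, 44.9, 272 and 35.8 TPM in Cd+Se mice and at 3.5, 18.1, 23.2 and 3.72 TPM in Se mice. Its groups did not overlap, yet the log2 fold change of 3.55 had an adjusted p of 0.0808. Saa1 ranged from 494 TPM in Cd+Se mouse 16 to 11796 TPM in mouse 13, and from 318 to 2768 TPM in Se mice. Saa2 and the orosomucoid Orm2, also overlapping, had log2 fold changes of 2.88 and 1.75 with adjusted p values of 0.400 and 0.404. Haptoglobin (Hp) stood at 4881 ± 1894 and 2513 ± 815 TPM (adjusted p = 0.157).

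Some chemokine and NF-kB response genes rose. Of 23 NF-kB and STAT3 response genes tested, 6 rose (Ccl2, Cxcl10, Il1rn, Icam1, Nfkb2 and Tnfaip3) and Cxcl13 fell, beside 0.553% and 0.191% of all genes, with a median of 0.49. Ccl2, Tnfaip3 and Cxcl13 averaged under 1 TPM either in both groups without Cd or in both groups with it, and passed the filter through the other groups, so this count is a description only. Ccl2, which draws monocytes through the receptor CCR2, stood at 15.5, 3.84, 4.85 and 4.67 TPM in Cd+Se mice and at 0.51, 0.45, 1.17 and 0.21 TPM in Se mice, a 12.3-fold rise (log2 fold change 2.21, SE 0.32, limma adjusted p = 0.0021). Mouse 13 was far above the other Cd+Se mice, and without it the log2 fold change was 1.81 (adjusted p = 0.0013). Cxcl10, a ligand of CXCR3 on T and NK cells, stood at 22.0, 9.88, 6.22 and 7.23 TPM against 2.29, 1.28, 1.91 and 2.18 TPM (log2 fold change 1.94, SE 0.27, adjusted p = 0.0020). The groups did not overlap for either gene.

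Further chemokine genes were picked after their values were seen. Cxcl2, which draws neutrophils, stood at 6.55, 2.12, 4.20 and 1.91 TPM in Cd+Se mice and at 0.12, 0.24, 0.06 and 0.23 TPM in Se mice (log2 fold change 1.91, SE 0.25, limma adjusted p = 9.9e-04). Cxcl2 averaged under 1 TPM in Se and Control mice. It passed the filter through the groups with Cd, so its test is a description only. Cxcl9 rose by 1.68 log2 units (adjusted p = 0.015). Cxcl1, the neighbour of Cxcl2 on chromosome 5, stood at 108, 34.3, 138 and 18.9 TPM against 4.37, 7.23, 16.03 and 10.9 TPM without overlap, and missed the threshold (2.55, adjusted p = 0.0752). The cytokine Il1b did not separate the groups, at 4.16 ± 1.48 and 3.13 ± 2.40 TPM (adjusted p = 0.698), and Tnf, under the filter, stood at 0.87, 0.19, 0.39 and 0.24 TPM against 0, 0.05, 0.08 and 0.16 TPM without overlap (exact two-sided permutation p = 0.0286).

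Il1rn, the decoy ligand of the interleukin-1 receptor, stood at 15.6, 3.07, 4.49 and 2.49 TPM in Cd+Se mice and at 0.34, 1.22, 1.09 and 1 TPM in Se mice, again with mouse 13 far above the rest. Its log2 fold change was 1.68 (adjusted p = 0.038), and 1.19 without mouse 13 (adjusted p = 0.017), but it was called in only 4 of 16 fits that leave out a mouse. The adhesion molecule Icam1, the NF-kB subunit gene Nfkb2 and Tnfaip3, a ubiquitin-editing brake on NF-kB, rose by 0.80, 0.82 and 1.12 log2 units, with adjusted p values of 0.033, 0.033 and 0.039. These 3 were lost without mouse 13 (adjusted p = 0.119, 0.0908 and 0.143), and Tnfaip3 also without Cd+Se mouse 15 and Se mouse 40 (0.0587). The list had 3 higher calls without mouse 13 (26 of 10483 over all genes). The inhibitors Nfkbia and Nfkbiz, at 0.57 and 0.76, were not called.

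The start-site windows of Cxcl2 and Cxcl10 are shown because they hold several matches to the kappa B letters (GGG, then any 3 bases, then TTCC), a motif added after the called genes were seen. Capitals mark the matches on either strand, and the first pair in Cxcl2 overlaps.
Cxcl2, chr5:90903649-90903928, plus strand: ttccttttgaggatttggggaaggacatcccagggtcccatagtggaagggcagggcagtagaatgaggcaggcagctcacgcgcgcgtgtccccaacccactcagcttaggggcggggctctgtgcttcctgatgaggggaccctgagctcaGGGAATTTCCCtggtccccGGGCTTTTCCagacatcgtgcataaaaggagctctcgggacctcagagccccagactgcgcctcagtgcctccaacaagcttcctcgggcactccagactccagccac
Cxcl10, chr5:92348860-92349139, minus strand: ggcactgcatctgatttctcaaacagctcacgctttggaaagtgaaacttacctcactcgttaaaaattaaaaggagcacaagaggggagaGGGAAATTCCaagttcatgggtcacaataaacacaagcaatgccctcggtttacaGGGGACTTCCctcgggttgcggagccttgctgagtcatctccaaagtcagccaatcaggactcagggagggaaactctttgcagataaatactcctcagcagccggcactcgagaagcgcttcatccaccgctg

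The Cxcl2 window holds 3 matches and the Cxcl10 window 2. Of all RefSeq windows, 5.56% hold at least 1 match, 0.201% at least 2 and 7 windows at least 3. For the tested genes with a window, 0.333% hold at least 2 and 3 windows at least 3. Among the called genes the letters occur in 8 of 45 higher genes with a window (17.8%: Csf3r, Cxcl10, Cxcl2, Il1rn, Nfkb2, Serpina3g, Tlr2 and Tnfaip3) and in 0 of 16 lower genes, beside 7.34% of the tested genes. The antioxidant response core TGACNNNGC is in 12.4% of windows and 17.1% of those of tested genes, in 8 of 45 higher (17.8%) and 2 of 16 lower genes. The heat shock letters GAANNTTC are in 7.86% of windows and 7.14% of those of tested genes, in 4 of 45 higher (8.89%) and 2 of 16 lower genes. No test was run on these shares.

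Some genes of neutrophils and monocytes rose. S100a8 and S100a9, which together form calprotectin, were both called, S100a8 with the smallest adjusted p of the 10483 genes. S100a8 stood at 22.7, 13.2, 13.7 and 18.7 TPM in Cd+Se mice and at 1.49, 2.59, 2.02 and 1.83 TPM in Se mice, an 8.61-fold rise (log2 fold change 2.58, SE 0.22, limma adjusted p = 3.2e-05). S100a9 stood at 47.5, 28.5, 27.6 and 30.1 TPM against 3.29, 5.30, 7.03 and 5.33 TPM, a 6.38-fold rise (2.46, SE 0.34, adjusted p = 0.0018). In Cd against Control they rose by 1.55 and 1.53 log2 units, and the difference between diets had adjusted p values of 0.0948 and 0.271.

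Only 4 of 14 neutrophil markers passed the filter, and all 4 were called higher, beside 0.553% of all genes: S100a8, S100a9, Retnlg (log2 fold change 1.48) and the G-CSF receptor Csf3r (0.93). Markers this low passed partly through the groups in which they are high, so their count is a description only. The list summed to 79.6, 48.0, 54.7 and 55.2 TPM in Cd+Se mice and to 6.41, 10.2, 10.8 and 9.09 TPM in Se mice, of which S100a9 was the largest share. The other 10 markers averaged under 1 TPM over the 8 mice. Of the granule genes, Ltf stood at 0.59, 0.06, 2.58 and 0.89 TPM in Cd+Se mice and at 0, 0, 0.21 and 0.09 TPM in Se mice, with an overlap through mouse 14. Camp averaged 0.258 and 0.025 TPM, Ngp 0.54 and 0.295 TPM, Mpo 0.010 and 0.0225 TPM and Elane 0.0375 and 0.0175 TPM in Cd+Se and Se mice, and Ly6g was listed at 0 in all Cd+Se mice. Without mouse 13, S100a8 and S100a9 remained called and Retnlg and Csf3r did not (adjusted p = 0.0653 and 0.103). In bulk liver, more cells of a type and more RNA per cell cannot be told apart, and the same holds for fewer cells and less RNA.

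Of 10 monocyte and recruited macrophage markers tested, 4 rose, beside 0.553% of all genes, and the other 6 also had positive values, beside 4369 positive of 10483, with a median of 0.76. Ccr2 averaged under 1 TPM in Se and Control mice and passed the filter through the groups with Cd, so the count is a description only. S100a4 stood at 27.6, 3.56, 10.7 and 7.04 TPM in Cd+Se mice and at 1.64, 0.91, 2.14 and 0.86 TPM in Se mice (log2 fold change 2.17, SE 0.38, limma adjusted p = 0.012). Ccr2, the receptor that brings monocytes out of marrow, stood at 3.5, 2.89, 1.90 and 2.33 TPM against 0.43, 0.57, 0.56 and 0.29 TPM (1.31, SE 0.18, adjusted p = 0.0018). Galectin-3 (Lgals3) rose by 1.45 and lysozyme (Lyz2) by 0.82, the latter from 46.7 ± 7.76 to 83.9 ± 19.1 TPM. The list summed to 239, 142, 122 and 172 TPM with Cd and, without overlap, to 88.3, 104, 98.8 and 86.2 TPM without it, and to 84.7 against 47.6 TPM on average without Lyz2, its most abundant gene. Lyz2 was not called without mouse 13 (adjusted p = 0.147). In Cd against Control Lyz2 stood at -0.05 log2 units, with a difference between diets of 0.87 that missed the threshold (adjusted p = 0.0842).

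Of 21 antigen presentation genes tested, 4 of MHC class II rose, beside 0.553% of all genes, with a median of 0.15 for the list. H2-Eb1 stood at 38.6, 29.7, 18.2 and 33.5 TPM in Cd+Se mice and at 16.2, 9.20, 10.2 and 8.59 TPM in Se mice (log2 fold change 1.35, SE 0.23, limma adjusted p = 0.011). H2-Ab1 rose by 1.09, H2-Aa by 1.11 and the invariant chain Cd74 by 0.90, the last 2 with an overlap of Cd+Se mouse 15 and Se mouse 39. The remaining 17 were not called, with B2m, shared by class I molecules, at 1890 ± 72.7 and 1984 ± 246 TPM. Without mouse 13 only H2-Eb1 was called of the 4, and without Cd+Se mouse 15 and Se mouse 40 the list had 5 calls, all higher, and a median of 0.26.

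Some genes of resident Kupffer cells fell. Of 13 Kupffer markers tested, 4 fell, beside 0.191% of all genes, none rose and all 13 had negative values, beside 6113 negative of 10483, with a median of -0.43. The size of that median rested on the libraries that stand apart: without mouse 13 it was -0.27 with 3 falls (9 of 10483 over all genes) and 2 positive members. Without Cd+Se mice 13 and 15 and Se mouse 40 it was -0.07 with 3 falls (11 of 10483 over all genes) and 6 positive members. Cd163 and Timd4 averaged under 1 TPM in both groups with Cd and passed the filter through the groups without it, so this count too is a description only. Cd163, the hemoglobin scavenger receptor, stood at 0.67, 0.32, 0.72 and 0.43 TPM in Cd+Se mice and at 2.75, 9.93, 6.43 and 4.60 TPM in Se mice (log2 fold change -2.07, SE 0.24, limma adjusted p = 3.3e-04). Vsig4, a complement receptor, stood at 3.37, 5.32, 5.62 and 4.65 TPM against 8.74, 23.2, 19.96 and 14.4 TPM (-1.55, SE 0.22, adjusted p = 0.0020). Timd4, a receptor for phosphatidylserine that marks embryo-derived Kupffer cells, stood at 0.65, 0.24, 0.34 and 0.34 TPM against 2.14, 4.26, 2.56 and 2.58 TPM (-1.46, SE 0.16, adjusted p = 2.9e-04). All 3 groups of values were fully separated.

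The lectin gene Clec4f fell by 1.34 log2 units, from 37.7 ± 12.9 to 14.5 ± 5.48 TPM, but was not called without mouse 13 (adjusted p = 0.107) or without Cd+Se mouse 15 and Se mouse 40 (0.0738). Folr2 stood at 3.79 ± 1.65 and 9.25 ± 2.99 TPM with separated groups and an adjusted p of 0.0551. The macrophage genes C1qa, Cd5l, Marco and Adgre1 overlapped between groups, at -0.49, -0.19, -0.43 and -0.14 log2 units, and without Cd+Se mice 13 and 15 and Se mouse 40 Cd5l and Adgre1 were positive, at 0.35 and 0.18. The list summed to 120, 219, 196 and 230 TPM in Cd+Se mice and to 190, 355, 278 and 240 TPM in Se mice, and to 119 against 192 TPM on average without Slc40a1, its most abundant member. In Cd against Control, 12 of the 13 fell, with a median of -1.24, beside 2858 of 10483 called lower and a median of -0.20 over all genes.

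Cxcl13, a B cell chemokine, was the largest fall. It was listed at 0 TPM in all 4 Cd+Se mice and in all 4 Cd mice, and stood at 15.7, 3.41, 3.08 and 2.27 TPM in Se mice and 3.39 TPM on average in Control mice. On the log2(TPM + 1) scale the difference was -2.49 (SE 0.35, limma adjusted p = 0.0020), and no fold is given against values of 0. Se mouse 39 lay far above the other Se mice.

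**Figure D4:**
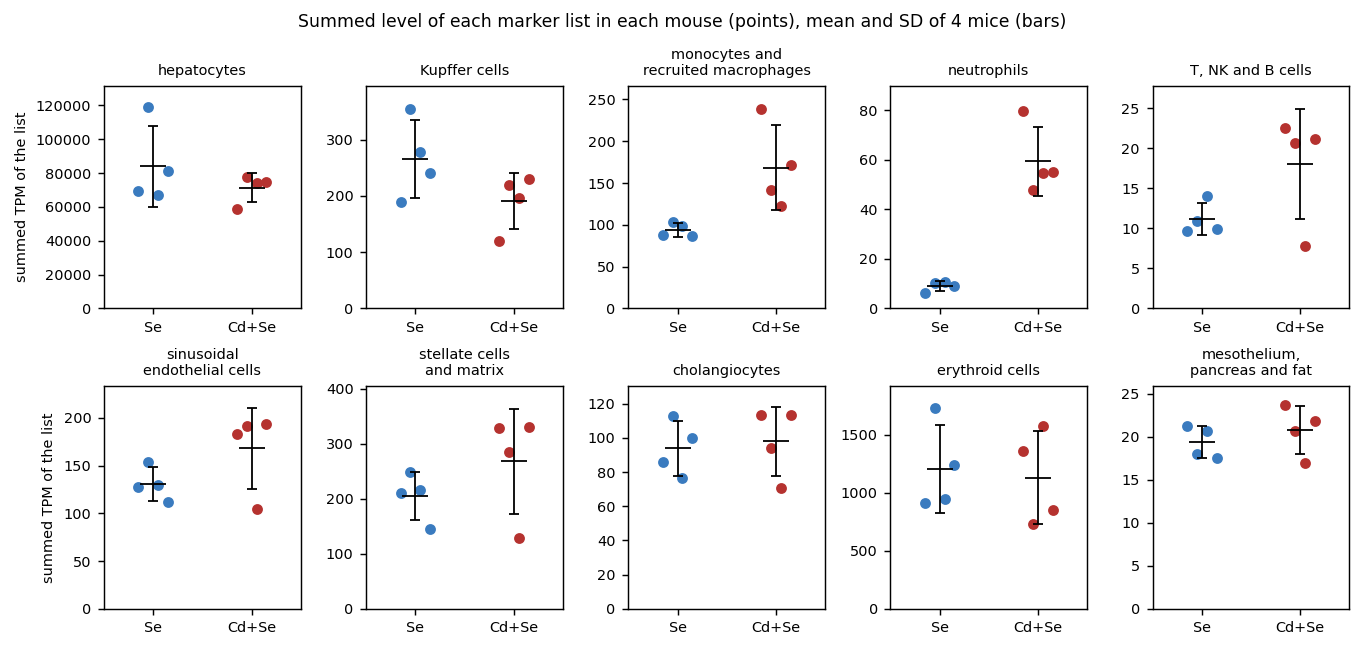
Summed TPM of 10 cell type marker lists in each Se and Cd+Se mouse: the vertical axes are linear from 0, points are mice and bars the mean and SD of 4 mice. The neutrophil and monocyte sums do not overlap between groups, and Cd+Se mouse 15 is the lowest of its group in the sinusoidal, stellate and lymphoid panels.

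Among markers of endothelial and stellate cells, Lyve1 and Col3a1 were called. Lyve1 (chr7:110850607-110863239, minus strand), the hyaluronan receptor of sinusoidal and lymphatic endothelium that some macrophages also carry, stood at 8.05, 5.84, 8.32 and 7.04 TPM in Cd+Se mice and at 1.38, 1.88, 1.43 and 1.61 TPM in Se mice. The 2 groups were far apart and each was narrow. The rise was 4.64-fold (log2 fold change 1.68, SE 0.25, limma adjusted p = 0.0028). In Cd and Control mice it averaged 3.14 and 2.79 TPM, with a log2 fold change of 0.06. Lyve1 was called without mouse 13 and without Cd+Se mouse 15 and Se mouse 40 (adjusted p = 0.014 and 0.013).

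Lyve1 was 1 of 16 sinusoidal endothelial markers tested, beside 0.553% of all genes called higher, and the other 15 were not called, with a median of 0.16 for the list. Without Cd+Se mouse 15 and Se mouse 40 the list had 2 higher calls (161 of 10483 over all genes), 16 positive members and a median of 0.49, and without mouse 13 as well no call and a median of 0.52. Clec4g, the most abundant, stood at 36.6 ± 10.8 and 32.1 ± 6.48 TPM. The list summed to 183, 191, 104 and 193 TPM in Cd+Se mice and to 127, 154, 129 and 112 TPM in Se mice. Of 11 stellate cell and matrix genes tested, type III collagen (Col3a1) rose, beside 0.553% of all genes, at 19.1, 6.95, 3.80 and 10.6 TPM against 2.40, 2.90, 2.80 and 1.62 TPM (1.52, SE 0.32, adjusted p = 0.043), a call held in 3 of 16 fits that leave out a mouse. Col1a2 stood at 3.44 ± 1.83 and 1.20 ± 0.382 TPM without overlap and missed the threshold (adjusted p = 0.0761), which it passed without Cd+Se mouse 15 and Se mouse 40 (1.09, adjusted p = 0.035). Without Cd+Se mouse 15 and Se mouse 40, 4 of the 11 were called higher (161 of 10483 over all genes), with a median of 0.82 against 0.30 with all mice. Without mouse 13 alone none was called, with a median of 0.19. Without Cd+Se mice 13 and 15 and Se mouse 40, 1 was, Col3a1 (37 of 10483 over all genes), with a median of 0.73. The T, NK and B cell list had 1 of 16 members among the protein-coding genes tested (Jchain, not called), and 14 averaged under 1 TPM over the 8 mice. Its most abundant member, Ighm, is not annotated as protein-coding and was not counted. It stood at 7.29, 7.32, 2.52 and 10.2 TPM in Cd+Se mice and at 2.70, 3.27, 5.83 and 3.16 TPM in Se mice. The list summed to 22.5, 20.7, 7.75 and 21.1 TPM in Cd+Se mice and to 9.68, 10.9, 14.1 and 9.96 TPM in Se mice. The cholangiocyte, erythroid and mesothelial, pancreatic or fat lists had no called member, and their sums overlapped between groups.

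Of 25 bile acid genes and 32 P450 genes of families 1 to 3 tested, 1 each fell, beside 0.191% of all genes. Cyp7a1 (chr4:6265612-6275633, minus strand), the rate-limiting enzyme of bile acid synthesis, stood at 41.1, 63.1, 49.9 and 41.4 TPM in Cd+Se mice and at 102, 214, 162 and 192 TPM in Se mice. All Cd+Se mice were below all Se mice, and the mean fell to 0.292 of that in Se mice (log2 fold change -1.73, SE 0.30, limma adjusted p = 0.013). Without mouse 13 the adjusted p was 0.0549 with a log2 fold change of -1.65. In Cd against Control the fall was -2.55, and the difference between diets was not called (adjusted p = 0.277). The other 24 of 25 bile acid genes were not called. Nr0b2, a repressor of Cyp7a1, stood at 12.4 ± 3.69 and 7.35 ± 1.56 TPM without overlap (adjusted p = 0.233), and the bile salt export pump gene Abcb11 at 108 ± 33.1 and 148 ± 30.04 TPM.

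Cyp3a11, the main drug-metabolising CYP3A enzyme of mouse liver, stood at 231, 262, 321 and 497 TPM in Cd+Se mice and at 527, 1726, 639 and 1103 TPM in Se mice (log2 fold change -1.51, SE 0.33, limma adjusted p = 0.044). The groups did not overlap, but the call was held in only 4 of 16 fits that leave out a mouse, and was lost without mouse 13 (adjusted p = 0.156) and without Cd+Se mouse 15 and Se mouse 40 (0.0820). Cyp3a11 averaged 328 TPM in Cd+Se, 999 in Se, 314 in Cd and 478 in Control mice, so that the Se mice were the high group. In Cd against Control the log2 fold change was -0.66 and not called (limma adjusted p = 0.138). The other 31 of 32 P450 genes of families 1 to 3 were not called. The carboxylesterase Ces2a fell from 121 ± 19.2 to 65.6 ± 7.51 TPM, apolipoprotein L Apol7a from 62.8 ± 9.01 to 36.3 ± 5.61 TPM and the folate enzyme Fpgs from 69.4 ± 6.17 to 45.7 ± 9.54 TPM (adjusted p = 0.012, 0.012 and 0.043). Miga2, which acts in mitochondrial fusion, fell from 19.6 ± 1.83 to 9.09 ± 1.07 TPM (adjusted p = 0.0028) and Idh3a, a subunit of mitochondrial isocitrate dehydrogenase, from 25.4 ± 2.93 to 16.1 ± 2.66 TPM (0.028). Hdhd3 and the membrane progestin receptor gene Paqr7 fell by 1.39 and 1.05 log2 units. Without mouse 13, Fpgs, Idh3a and Paqr7 were not called (adjusted p = 0.139, 0.107 and 0.0860), and Idh3a and Paqr7 were also lost without Cd+Se mouse 15 and Se mouse 40 (0.0744 and 0.0539). Fpgs was called in 3 of 16 fits that leave out a mouse. Ces2a, Apol7a, Fpgs and Idh3a were chosen after their values were seen.

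In all, 31 of the 78 genes were in at least 1 of the 45 lists and 47 in none, and 31 lists had no called member. Among those, 27 of 32 PPARalpha targets of fatty acid oxidation had negative values (median -0.30, none called), but 9 were called lower without Cd+Se mouse 15 and Se mouse 40 (36 of 10483 over all genes), with a median of -0.46. Mouse 15 stood apart partly through high Cyp4a10 and Cyp4a14, which belong to this programme, so that count is not independent of the choice to leave it out. None was called without mouse 13, with a median of -0.18, or without all 3. Of 35 nuclear genes of respiratory complexes III, IV and V, 32 had negative values (median -0.12), and in 10 the Cd+Se mice all lay below the Se mice, beside 417 of 10483 over all genes. Other lists leaned the same way, with 31 of 37 nuclear complex I genes negative (8 below without overlap) and 26 of 32 proteasome genes negative (1 below), beside 6113 of 10483. In Cd against Control the median was 0.14 for complexes III, IV and V (9 called higher, 3 lower) and 0.23 for complex I (15 higher, 2 lower). It was -0.01 for the proteasome list (8 higher, 5 lower), beside -0.20 over all genes (519 higher, 2858 lower). The interferon-stimulated list had no call, but 3 rises (Ifit2, Ifit3 and Oas1a) without Cd+Se mouse 15 and Se mouse 40. The gluconeogenesis and glycogen list had 12 positive and 12 negative members. Pck1, the enzyme that opens gluconeogenesis, ranged from 237 TPM in Cd+Se mouse 14 to 1907 TPM in mouse 15. Cholesterol synthesis, lipogenesis, urea cycle, methionine cycle, complement and coagulation, circadian clock and hepatocyte transcription factor genes had no call.

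Some called genes outside the lists were picked after their values were seen. The activin antagonist follistatin (Fst) rose by 1.68, the pattern receptor Tlr2 by 1.37 and Dusp6, a phosphatase of ERK, by 1.25 log2 units (limma adjusted p = 0.034, 0.0028 and 0.032). Tlr2 averaged under 1 TPM in Se and Control mice. It passed the filter through the groups with Cd, so its test is a description only. Fst and Dusp6 were not called without mouse 13 (adjusted p = 0.119 and 0.0689). Lipoprotein lipase (Lpl) stood at 11.52, 10.7, 10.4 and 11.8 TPM against 4.42, 7.69, 4.80 and 3.38 TPM, with little spread among Cd+Se mice (1.04, SE 0.18, adjusted p = 0.012). The pan-leukocyte gene Ptprc rose by 0.90 (adjusted p = 0.028) and Ms4a4c, of a family found on leukocytes, by 1.96 (0.013), of which Ptprc was not called without mouse 13 (0.103). Like Tlr2, Ms4a4c averaged under 1 TPM in Se and Control mice and passed the filter through the groups with Cd. Its test too is a description only.

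The 2 diets were set side by side through Cd against Control, which shares no library with Cd+Se against Se. In the same model that contrast called 3377 genes (32.2%), 519 higher (4.95%) and 2858 lower (27.3%), with a median log2 fold change of -0.20. Without Cd mouse 5 it had 529 higher and 1944 lower genes and a median of -0.12. With each library centred on its median the split was 1881 higher and 1761 lower, so the balance of directions there depended on the scaling. Of the 78 genes, 39 were called in the same direction in both contrasts (50% of the 78 and 1.15% of the 3377), 25 of the 58 higher and 14 of the 20 lower, and none in opposite directions. The sign was shared by 54 of 58 higher and 19 of 20 lower genes.

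The 58 higher genes had a median log2 fold change of 1.15 in SeMet-fed mice and 0.52 without SeMet, and the 20 lower genes -0.99 and -0.86. Since the genes were chosen for passing in the SeMet-fed mice, their size there is not independent of the choice. Higher genes not called in Cd against Control included the MHC class II genes, Lyz2, Tlr2, Il1rn, Col3a1 and Dusp6. Dusp6 averaged 27.8 TPM in Cd+Se, 11.3 in Se, 25.7 in Cd and 27.7 TPM in Control mice, so that the Se mice were the low group.

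**Figure D5:**
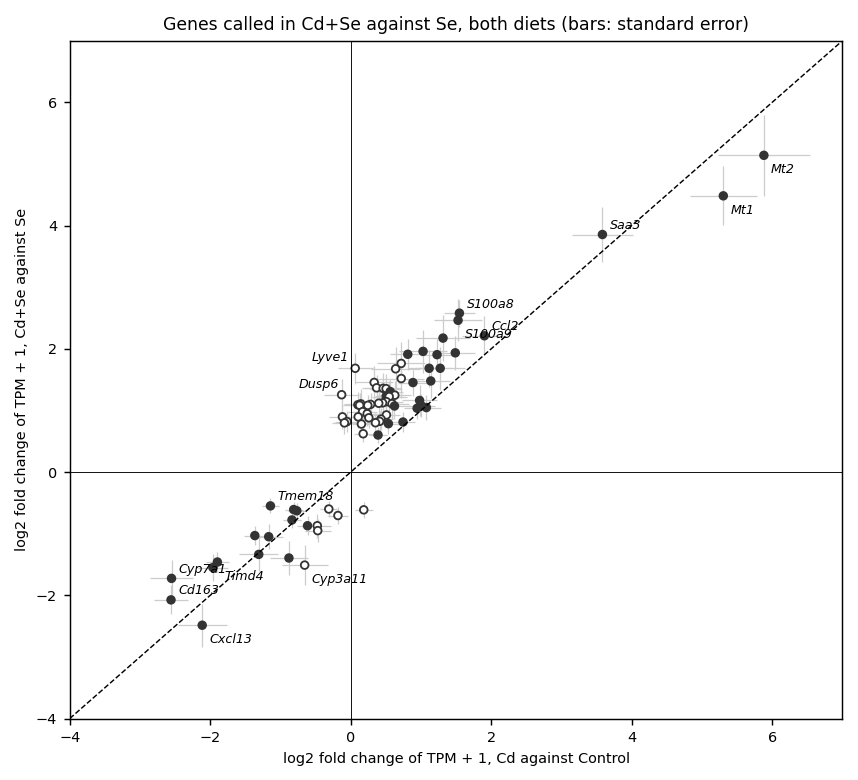
Log2 fold changes of the 78 called genes with standard errors: the horizontal axis is Cd against Control and the vertical axis Cd+Se against Se, the dashed line marks equal change, and filled points were also called in Cd against Control. Mt1 and Mt2 lie below the line, Lyve1 lies at 0.06 and 1.68, and 39 points are filled.

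A test of the difference itself, (Cd+Se minus Se) minus (Cd minus Control), called 106 genes (1.01%), 99 positive and 7 negative. With quantile normalization it called 486 (321 positive) and with median centring 672 (307 positive), and in limma no gene was called without Control mouse 29 and 1 without Cd+Se mouse 14 (with all libraries, 2334 genes had an unadjusted p under 0.05). Of the 106 genes, 96 were lower and 7 higher in Cd against Control, and their median log2 fold change was -0.99 there and -0.03 in Cd+Se against Se. Lyve1 was the one gene called both by this test and in Cd+Se against Se (difference 1.62, SE 0.35, limma adjusted p = 0.043), and its call was held in 5 of 16 fits that leave out a mouse.

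Steap4, a metalloreductase of iron and copper, stood at 120, 68.4, 137 and 67.1 TPM in Cd+Se mice, against 48.1, 51.9, 53.8 and 45.2 TPM in Se mice. It stood at 38.1, 38.6, 26.5 and 45.7 TPM in Cd mice, against 98.6, 63.7, 64.9 and 76.2 TPM in Control mice. The levels with Cd were above those without it on the SeMet diet and below them on the diet without SeMet. The first of these changes was not called (0.90 log2 units, limma adjusted p = 0.0923) and the second was (-1.01, adjusted p = 0.0038). Without Cd, Steap4 averaged 49.7 TPM in Se and 75.9 TPM in Control mice. The difference between diets was 1.91 (SE 0.32, adjusted p = 0.018) and was called in 15 of 16 such fits. Arf6, a small GTPase of endosomal traffic, averaged 13.8 and 14.04 TPM in Cd+Se and Se mice, where it differed by -0.04 log2 units, and fell by 1.82 in Cd against Control (difference 1.79, adjusted p = 0.043), a call held in 5 of 16 such fits. The secreted C1qtnf1 differed by 0.34 and -1.30 (difference 1.64, adjusted p = 0.018), a call held in 14 of 16.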

How the data were processed

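Poly(A)-selected liver RNA of 16 mice, 4 in each of 4 groups, was sequenced on an Illumina NovaSeq platform. The submitters' processing notes name fastp, HISAT2 and StringTie, with no versions, and the build GRCh38, although the gene identifiers are those of mouse. The authors deposited 1 table of TPM, normalised to a total of 1000000 per library, which keeps no depth. Each sample title names repeats whose meaning is not stated, and its single TPM column was taken as 1 mouse. No technical replicates are separable. P-values rest on the spread between mice, which in limma is shared by the 4 groups.

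From the TPM, genes with a mean of at least 1 over the 16 libraries (11766, of which 10483 are protein-coding) were tested on log2(TPM + 1) with limma 3.58.1 in R 4.3.3, with an intensity trend and 1 mean per group, and Benjamini-Hochberg adjustment over the 11766 genes at 0.05. Changes of genes with low TPM come out too small on this scale. Fold of means is the ratio of mean TPM. Genes under the filter were compared by an exact two-sided permutation test. The script was tested on simulated data. GENCODE M21 positions on GRCm38 matched 10467 of the 10483 genes.

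Named were the metal and ferroptosis genes of the study, the 10 largest called rises and falls without overlap, up to 4 called members and the most abundant member of each of 45 lists, the 5 largest differences between diets, and defining members of lists. Other genes were picked with their values in view. 1 called gene is counted but not reported here. The members and lists were chosen with earlier results of these data known.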

Additional observations from a re-analysis of the deposited data

Results flagged for a closer look

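In 85 groups of 4 mice, from 43 named genes, a mouse lay apart from the other 3 by more than Dixon's 95% critical ratio in 7, where chance would give about 4.25. Cd+Se mouse 13 was the high mouse for Ccl2 (ratio 0.913, 15.5 TPM against 3.84 to 4.85), S100a9 (0.872, 47.5 against 27.6 to 30.1) and Il1rn (0.848, 15.6 against 2.49 to 4.49). Cd+Se mouse 16 was high for Gpx4 (0.873, 356 against 280 to 290.0 TPM) and listed at 0 for the histone gene H4c17 (0.957, against 0.45 to 0.47). Se mouse 39 was high for Cxcl13 (0.915, 15.7 against 2.27 to 3.41 TPM) and low for Paqr7 (0.84, 13.9 against 18.3 to 19.1 TPM).

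Of the 106 genes whose Cd effect differed between diets by the limma interaction, the text names 6, with the difference given here as the effect with SeMet minus that without it. The difference was 1.62 for Lyve1 (adjusted p = 0.043), 1.91 for Steap4 (0.018), 1.79 for Arf6 (0.043), 1.64 for C1qtnf1 (0.018), -3.32 for Gm20708 (0.018) and -1.87 for H4c17 (0.043). These differences were called again in 5 of 16 fits that leave out a mouse for each of Lyve1, Arf6 and H4c17, and in 14 for Gm20708. Gm20708 and H4c17 averaged under 1 TPM in the 3 other groups and passed the filter through the Cd group, in which they are high, so their differences are a description only. Gm20708 stood at 6.90, 8.21, 19.4 and 3.70 TPM in Cd mice and at most 2.09 TPM in any Se or Cd+Se mouse.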

How the results depend on the processing

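All 78 called genes kept their direction in every alternative that tested them, but in the 76 without overlap leaving out mice could not reverse it. Against 78 called (58 higher, 20 lower) and 106 differing between diets, no filter gave 75 called, 37 of them among the 78, and 20 for the difference, a mean of at least 5 TPM 29 called (20 higher, 9 lower), and quantile normalization 119 called, 40 lower and 486 for the difference. Median centring gave 35 lower and 672, rescaling to nuclear protein-coding genes 571, the 8 Cd+Se and Se libraries alone 10 called (7 higher, 3 lower), and a log2 change of at least 1 gave 10 lower and 58 for the difference. Chosen after seeing the data, leaving out Cd+Se mouse 15 and Se mouse 40 gave 197 called (161 higher, 36 lower) and 295, leaving out mouse 13 too gave 48 (37 and 11) and 240, and an unadjusted p gave 1164 (495 and 669) and 2334. Leaving out 1 mouse at a time gave 25 to 180 called, 18 to 132 higher, 7 to 48 lower and 0 to 325 for the difference. Cd against Control split into 1397 higher and 2217 lower after quantile normalization, 1881 and 1761 after centring, 774 and 3120 after rescaling, and 529 and 1944 without Cd mouse 5. The cause of these shifts was not tested.

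Reversals were in uncalled genes near 0: Fth1 -0.023 with quantile normalization. Without Cd+Se mouse 15 and Se mouse 40 they were Adgre1 0.034, Gpx4 0.11, Slc3a2 -0.026 and Slc40a1 0.024, and without mouse 13 as well Adgre1 0.18, Arf6 0.12, Cd5l 0.35, Gpx4 0.17, Selenop 0.056 and Slc40a1 0.34. Leaving out 1 mouse, Arf6 ranged from -0.20 to 0.15, Cd5l -0.48 to 0.10, Fth1 -0.012 to 0.19, Gclc -0.0040 to 0.48, Gpx4 -0.19 to 0.10, Selenop -0.095 to 0.019, Slc3a2 -0.14 to 0.16 and Slc40a1 -0.17 to 0.16. No paired analysis was possible because mouse numbers do not repeat across groups. TPM carry no depth, so counting error is unknown.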

Other observations

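Cd+Se mouse 15 had by far the highest level of a pair of fatty acid oxidation genes. Cyp4a14, a fatty acid hydroxylase, stood at 2.76, 5.77, 1289 and 29.04 TPM in Cd+Se mice 13 to 16 and at 47.7, 166, 55.3 and 156 TPM in Se mice, so that 3 Cd+Se mice lay below all Se mice and mouse 15 far above. With all mice its log2 fold change was -1.55 (limma adjusted p = 0.733) while its mean TPM was higher in Cd+Se than in Se mice. Cyp4a10, a related hydroxylase, stood at 14.8, 16.3, 701 and 33.5 TPM in Cd+Se mice 13 to 16 and at 57.8 to 105 TPM in Se mice, with a log2 fold change of -0.60 (adjusted p = 0.870). Without Cd+Se mouse 15 and Se mouse 40 both were called lower, but mouse 15 was singled out partly by these genes, so these calls are not independent of that choice and are a description only.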
